A study of Mus musculus with 2 samples.

Results

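The 42 genes described here act when a cell duplicates its DNA and divides. They were taken by gene symbol from a given list: 24 mitotic genes, 12 DNA replication genes, 4 regulators of the step from G1 into S phase, and 2 genes that are not tied to 1 phase. All 42 were found among the 32589 genes of the count tables, and all 42 had at least 1 UMI (a counted molecule) in each library. Of these, 41 reached 20 UMIs over both libraries together, and Ccne1, with 6 and 10, did not.

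The series holds 2 single-cell RNA libraries of enlarged left ventricle, taken 6 weeks after transverse aortic constriction (TAC), an operation that narrows the aorta and loads the left ventricle with pressure. Wild-type mice gave 1 library and p53 knockout mice gave the other, and each library pooled the tissue of 3 hearts. Both groups had TAC and the labels name no unoperated or sham group. They give no strain, age or sex, nor which cells lack p53 or which part of the gene was removed. With 1 library per genotype there is no replicate, so no difference between the libraries has a test, and every interval below is a 95% interval of counting error only.

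A cell copies its chromosomes in S phase. The MCM helicase opens the DNA, the sliding clamp PCNA holds the polymerases on it, and ribonucleotide reductase and thymidylate synthase supply nucleotides. In mitosis, cyclin B with CDK1, Aurora and Polo-like kinases, kinesin motors and centromere proteins condense, align and separate the chromosomes. Adult mouse cardiomyocytes are known to divide very rarely, whereas endothelial cells and macrophages of the heart can divide under pressure load.

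The wild-type library summed to 18897913 UMIs over 16060 barcodes. The library labelled p53 knockout summed to 20918824 UMIs over 10118 barcodes. Filtering left 14764 and 9298 cells, whose median depths were 936 and 1569 UMIs, and 105 barcode sequences occurred in both libraries. The labels call the cells cardiomyocytes, but 4822 of 14764 and 868 of 9298 cells were cardiomyocyte-like by marker genes. Trp53, the gene of p53, read 38.9 CPM (638 UMIs) in the wild-type library and 54.7 CPM (1013 UMIs) in the library labelled p53 knockout, where CPM is UMIs scaled to a common total of nuclear-encoded UMIs. Its count was therefore not lower under that label, and a 3' tag outside a deleted part would check nothing. Each direction given below is between the libraries as labelled. Xist, expressed from the inactive X chromosome of females, read 2.38 and 929 CPM, and genes of the Y chromosome 539 and 7.34 CPM. Sex and genotype therefore cannot be told apart in any comparison of these libraries.

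Replication and mitosis genes were a very small part of the RNA in both libraries. Their UMIs summed to 5809 in the wild-type library and 7591 in the library labelled p53 knockout, which is 0.0354% and 0.0410% of nuclear-encoded UMIs. The mitotic genes together read 146 CPM (141 to 152) and 141 CPM (135 to 146). Without Cenpa, they read 81.4 CPM (77.1 to 85.8) and 119 CPM (114 to 124). The log2 ratio without Cenpa, knockout over wild type, was 0.55 (0.45 to 0.65). The replication genes together read 126 CPM (121 to 132) and 164 CPM (158 to 170). UMIs of these sets clump in single cells, so intervals of summed UMIs, which treat molecules as independent, are too narrow. Sums over all kept cells also mix classes whose shares of the cells differ between the libraries. A 3' library counts 1 UMI per captured molecule, so levels are not divided by gene length.

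Among the replication genes, Pcna gave the most UMIs. It read 22.2 CPM (364 UMIs) in the wild-type library and 29.7 CPM (551 UMIs) in the library labelled knockout. Mcm6, a subunit of the helicase, read 17.7 and 22.7 CPM, and Tyms, thymidylate synthase, 17.7 and 22.0 CPM. Mcm7 was lower under the knockout label: it read 19.1 CPM in the wild-type library and 13.7 CPM in the library labelled knockout. The remaining replication genes (Mcm2, Mcm3, Mcm4, Mcm5, Rrm1, Rrm2, Pclaf and Hells) lay between 1.16 and 14.7 CPM in the wild-type library, and each was higher in the library labelled knockout.

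Of the mitotic genes, Cenpa, the histone H3 variant that marks centromeres, stood far above the rest. It read 65.0 CPM (1068 UMIs) in the wild-type library and 21.4 CPM (397 UMIs) in the library labelled knockout. Cenpf, a kinetochore protein, read 13.6 and 6.91 CPM. Mki67, the antigen used to stain proliferating cells, read 6.46 CPM (106 UMIs) and 13.3 CPM (246 UMIs). Top2a, which untangles sister chromatids, read 5.24 CPM (86 UMIs) and 10.8 CPM (201 UMIs). Over all kept cells, Cenpa and Cenpf were thus higher in the wild-type library while Mki67 and Top2a were higher in the library labelled knockout. Cardiomyocyte-like cells, 4822 of 14764 and 868 of 9298 cells, held 788 of the 1068 wild-type Cenpa UMIs. These orders therefore include the different mix of classes. Kif23 and Anln both act when the cell splits. They read 9.32 and 7.86 CPM in the wild-type library and 9.98 and 11.9 CPM in the library labelled knockout. Ccnb1, Aurka, Aurkb, Plk1, Kif20a, Bub1 and Ube2c had at most 48 UMIs in either library, as did Ccna2. The other mitotic genes (Birc5, Cdk1, Ccnb2, Cenpe, Bub1b, Kif11, Tpx2, Nusap1, Prc1 and Cdc20) read 1.52 to 4.63 CPM in the wild-type library. In the library labelled knockout they read 3.29 to 8.63 CPM.

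Ccnd1, cyclin D1, which carries growth signals into G1, was the most abundant G1/S regulator at 41.7 and 50.6 CPM. Ccne2 read 5.24 and 5.88 CPM, and E2f1, a transcription factor of S-phase genes, 2.56 and 5.56 CPM. Hmgb2, a chromatin protein, read 25.3 and 36.6 CPM, and Stmn1, which destabilises microtubules, 6.21 and 6.10 CPM.

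**Figure D1:**
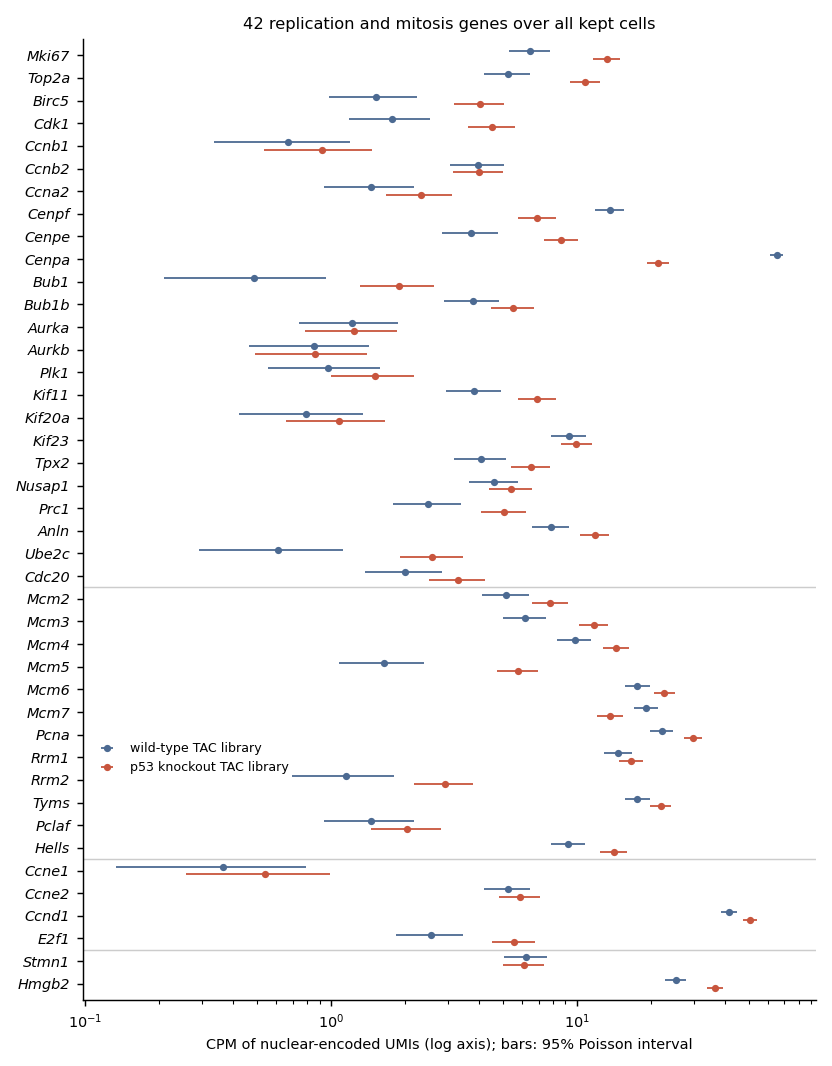
Each of the 42 genes is a row, in role order with grey lines between roles (mitotic, replication, G1/S, not tied to 1 phase), and the log axis gives CPM of nuclear-encoded UMIs over all kept cells of the 2 libraries with 95% Poisson intervals. Cenpa lies farthest right among the mitotic genes, at 65.0 and 21.4 CPM.

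Mitotic and replication genes differ in what the 300 bases around their start sites contain. RefSeq promoter windows of build GRCm38.p6, 250 bases before to 50 after the start, were matched for 34 of the 42 genes. No window was matched for Ccna2, Aurkb, Kif20a, Tpx2, Mcm4, Ccne2, Ccnd1 and Stmn1. Searches on both strands covered the cell cycle homology region (CHR, TTTGAA or TTCGAA), to which repressor and activator complexes of mitotic genes bind, and the CCAAT box, bound by NF-Y. They also covered E2F-type sites in 5 spellings, TTTCGCGC, TTTGGCGC, TTTCCCGC, TTTGCCGC and TTTGGCGG, which can overlap one another. A CHR match occurred in 16 of 20 matched mitotic genes (80%), in 2 of 11 replication genes (18.2%) and in 19.2% of all 32851 windows. CCAAT occurred in 17 of the 20 (85%), in 9 of the 11 (81.8%) and in 37.4% of all windows. An E2F-type match occurred in 1 of the 20 (5%), in 6 of the 11 (54.5%) and in 2.78% of all windows. CHR letters were thus more frequent in the mitotic windows and E2F letters in the replication windows. A match is a description of letters, not of binding, and these windows were not measured in the series.

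Windows of 4 genes are shown because the results turn on them: Cenpa for its spread over cardiomyocyte-like cells, Top2a for its clustering in few cells, Kif23 for its level in macrophage-like cells, and Mcm6 as the replication gene with the most E2F-type matches. Each is given 5' to 3' on the gene's own strand, with the matched CHR, CCAAT and E2F letters of either strand in capitals. They are chr5:30666636-30666935 (+) for Cenpa, chr11:99024140-99024439 (-) for Top2a, chr9:61946750-61947049 (-) for Kif23 and chr1:128359656-128359955 (-) for Mcm6.
Cenpa: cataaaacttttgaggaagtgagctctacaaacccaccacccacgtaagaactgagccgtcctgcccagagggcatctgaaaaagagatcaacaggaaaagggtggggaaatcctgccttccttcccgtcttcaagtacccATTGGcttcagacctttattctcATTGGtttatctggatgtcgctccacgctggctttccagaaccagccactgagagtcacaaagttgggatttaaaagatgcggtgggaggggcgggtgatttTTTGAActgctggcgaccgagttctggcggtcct
Top2a: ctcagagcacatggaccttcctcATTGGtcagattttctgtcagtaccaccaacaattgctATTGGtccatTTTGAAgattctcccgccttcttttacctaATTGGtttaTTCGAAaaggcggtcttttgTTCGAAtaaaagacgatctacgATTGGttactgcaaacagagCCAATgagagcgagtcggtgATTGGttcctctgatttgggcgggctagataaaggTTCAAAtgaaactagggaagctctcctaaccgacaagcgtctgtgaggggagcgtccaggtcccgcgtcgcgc
Kif23: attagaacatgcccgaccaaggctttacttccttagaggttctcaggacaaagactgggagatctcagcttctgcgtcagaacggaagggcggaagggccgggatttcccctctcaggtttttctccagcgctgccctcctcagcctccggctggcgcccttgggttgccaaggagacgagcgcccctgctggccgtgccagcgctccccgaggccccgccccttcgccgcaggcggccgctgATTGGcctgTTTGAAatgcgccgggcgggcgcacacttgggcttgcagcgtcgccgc
Mcm6: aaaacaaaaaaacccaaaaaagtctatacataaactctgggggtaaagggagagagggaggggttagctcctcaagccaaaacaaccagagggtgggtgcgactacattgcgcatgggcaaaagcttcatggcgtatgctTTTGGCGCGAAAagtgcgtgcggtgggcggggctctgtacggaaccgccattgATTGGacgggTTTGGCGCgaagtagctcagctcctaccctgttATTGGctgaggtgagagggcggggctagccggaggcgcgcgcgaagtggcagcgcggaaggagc
Cenpa and Kif23 have 1 CHR match each, and Top2a has 4 beside 6 CCAAT matches. Mcm6 has 3 E2F-type matches, 2 CCAAT matches and no CHR match.

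Cenpa gave most of the mitotic UMIs of cardiomyocyte-like cells. It read 128 CPM (788 UMIs) in the wild-type library and 71.9 CPM (162 UMIs) in the library labelled knockout, a log2 ratio of -0.82 (-1.08 to -0.58), knockout over wild type here and below. Cenpa made up 68.9% of the mitotic UMIs of these cells in the wild-type library and 54.4% in the library labelled knockout. Over all kept cells it made up 44.4% and 15.2%. The other 23 mitotic genes summed to 57.5 CPM (51.7 to 63.8) and 60.4 CPM (50.7 to 71.4) in cardiomyocyte-like cells. The log2 ratio of the whole mitotic set there was -0.48 (-0.67 to -0.30), and without Cenpa it was 0.07 (-0.23 to 0.36). The lower mitotic level of the library labelled knockout in this class had the opposite sign, with an interval that included 0, once Cenpa was removed.

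Different clusters held most cardiomyocyte-like cells of each library, clusters 1, 10 and 6 in the wild type and clusters 12 and 6 in the library labelled knockout. In cluster 6, which is rich in mitochondrial RNA and has cells of both, Cenpa read 62.0 CPM (53 UMIs) and 74.1 CPM (39 UMIs), a log2 ratio of 0.26 (-0.38 to 0.88). Clusters 1 and 10 read 126 and 158 CPM in the wild-type library, and cluster 12 read 71.7 CPM in the library labelled knockout. The sign of the class was thus not that of the shared cluster, whose interval included 0.

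Cenpa UMIs were spread over many cells. Of the 790 wild-type cells with Cenpa, 7.85% held a UMI of another mitotic gene, against 5.35% of the cells without it. In the library labelled knockout 23.2% of 289 Cenpa cells did, against 9.96%. Mki67 cells held another mitotic gene in 65.2% of 46 wild-type cells and 56.8% of 95 cells labelled knockout. Top2a cells did so in 40.7% of 54 and 54.6% of 108. Cells with Cenpa were deeper, at medians of 1447.5 and 2362 UMIs, so every cell was also thinned to 500 UMIs. Another mitotic gene was then found in 2.88% (1.39 to 5.24) of wild-type cells with Cenpa and 2.97% (2.70 to 3.26) of those without. In the library labelled knockout the shares were 10.6% (4.96 to 19.2) and 3.73% (3.36 to 4.14), and these intervals did not overlap. Among thinned wild-type cardiomyocyte-like cells it was found in 10 of 216 with Cenpa (4.63%, 2.24 to 8.35) and in 2.78% (2.32 to 3.30) of those without. For cardiomyocyte-like cells labelled knockout this held for 0 of 24 cells with Cenpa, where the Clopper-Pearson upper limit is 14.2%. The intervals of wild-type cardiomyocyte-like cells with and without Cenpa overlapped.

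**Figure D2:**
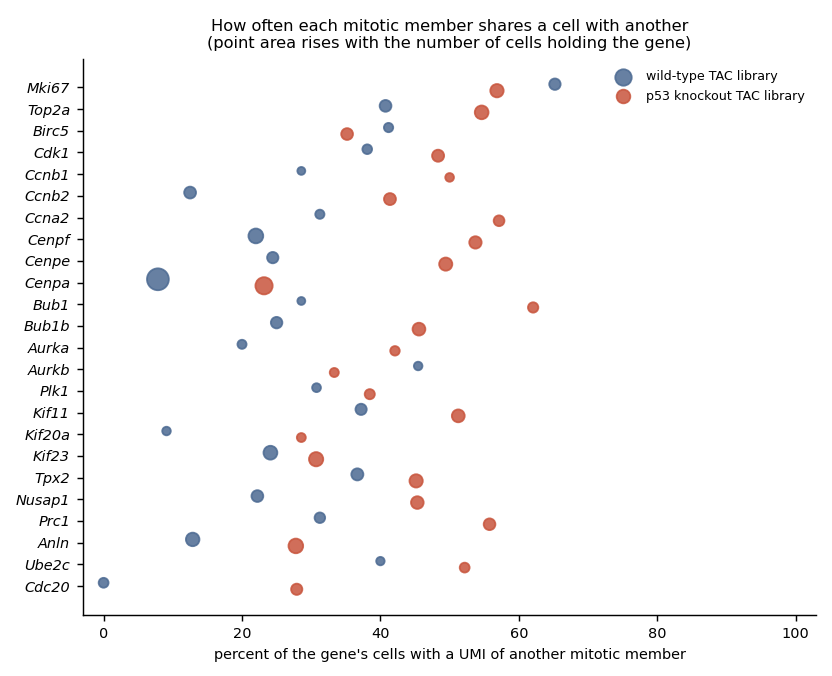
For each mitotic gene (rows), the x axis gives the percent of its cells that also hold a UMI of another mitotic gene, by library, with the point area rising with the number of cells. Cenpa sits at 7.85% and 23.2%, left of Mki67 at 65.2% and 56.8%.

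Cardiomyocyte RNA found in other classes was set beside Cenpa. In the wild-type library, fibroblast-like cells read Cenpa at 12.7% of the cardiomyocyte-like level. Myh6, the myosin heavy chain of cardiomyocytes, lay between 12.9% and 14.6% in the other 4 large classes. Vascular endothelial-like cells read Cenpa at 18.9%, endocardial-like cells at 25.5% and macrophage-like cells at 41.2%. In the library labelled knockout Myh6 lay between 1.94% and 2.44% in the other 4 large classes, while Cenpa lay between 8.18% and 56.2%. The Cenpa share thus lay at the Myh6 share in wild-type fibroblast-like cells and above it in the other 3 wild-type classes and in all 4 classes of the library labelled knockout. The part of free RNA in the Cenpa values was not tested. By their GENCODE positions, no other gene of the count tables overlaps Cenpa. The nearest of these genes, Slc35f6, is 7048 bases away. It read 27.1 and 33.3 CPM in cardiomyocyte-like cells, a log2 ratio of 0.30 (-0.11 to 0.70).

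Cenpf also stood out in cardiomyocyte-like cells, at 22.0 CPM (136 UMIs) and 6.66 CPM (15 UMIs), a log2 ratio of -1.68 (-2.60 to -0.95). In cluster 6 it read 62.0 and 11.4 CPM. Tpx2, a spindle assembly factor, read 4.37 and 8.44 CPM and Kif11, the kinesin that pushes spindle poles apart, 2.92 and 7.10 CPM. Anln read 5.02 and 6.22 CPM. Mki67 had 7 and 6 UMIs in this class and Top2a 13 and 7.

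The replication genes read 79.1 CPM (72.2 to 86.4) and 62.2 CPM (52.3 to 73.4) in cardiomyocyte-like cells. Tyms read 15.6 CPM (96 UMIs) and 3.55 CPM (8 UMIs), a log2 ratio of -2.05 (-3.38 to -1.09). Hells, a chromatin remodeller of replicating cells, went the other way, with 5.02 CPM (31 UMIs) and 13.8 CPM (31 UMIs). Pcna read 13.3 and 16.0 CPM, Mcm7 13.6 and 6.22 CPM and Mcm6 9.40 and 5.33 CPM. The members of the set differed in sign in this class. Of the other genes, Ccnd1 read 22.0 and 24.4 CPM, Ccne2 5.83 and 2.22 CPM and Stmn1 4.21 and 1.33 CPM, and Hmgb2 had 117 and 45 UMIs. E2f1 had 3 and 1 UMIs, and Ccne1 3 and 0.

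**Figure D3:**
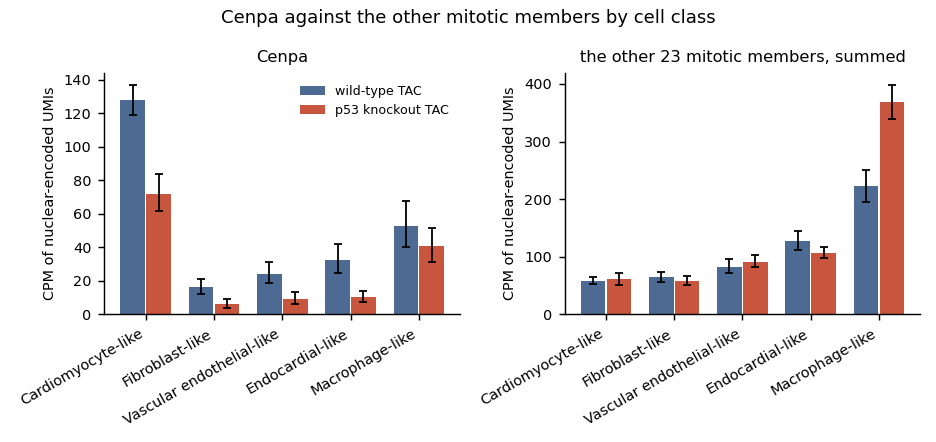
Bars give CPM of nuclear-encoded UMIs of Cenpa (left) and of the sum of the other 23 mitotic genes (right) in the 5 largest classes and both libraries, with 95% Poisson intervals. Cenpa is highest in cardiomyocyte-like cells, at 128 and 71.9 CPM, whereas the other mitotic genes are highest in macrophage-like cells, at 222 and 368 CPM.

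Few cells held several mitotic genes at once, which is the pattern of a cell in G2 or mitosis. At least 3 distinct mitotic genes were found in 26 of 14764 wild-type cells (0.176%, exact Clopper-Pearson interval 0.115 to 0.258) and in 65 of 9298 cells labelled knockout (0.699%, 0.540 to 0.890). The cells labelled knockout were sequenced more deeply, so each cell was also thinned to 500 UMIs and scored for at least 2 distinct mitotic genes. The shares were then 0.217% (0.148 to 0.306, 32 cells) and 0.613% (0.465 to 0.794, 57 cells), against 0.772% and 2.02% without thinning. No cell was shallower than 500 UMIs, so none was left out.

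Those few cells carried much of the mitotic RNA of the library labelled knockout. Cells with at least 3 mitotic genes held 38.6% of its mitotic UMIs, and 12.0% of those of the wild-type library. In cardiomyocyte-like cells the share was 3.69% and 1.66%. In macrophage-like cells it was 55.6% and 20.4%, each given with the library labelled knockout first. Mitotic UMIs that were the only one of the set in their cell made up 30.9% in the library labelled knockout and 46.9% in the wild-type library. Outside the cells with at least 3 mitotic genes, the mitotic set without Cenpa read 64.4 CPM in the wild-type library and 67.6 CPM in the library labelled knockout. These cells were picked by mitotic UMIs, so the last values are a description.

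In the library labelled knockout, macrophage-like cells held more of them than any other class, and in the wild-type library endocardial-like cells did. At least 3 mitotic genes were found in 4 of 1069 wild-type cells (0.374%, 0.102 to 0.955) and in 28 of 1027 cells labelled knockout (2.73%, 1.82 to 3.92). Thinned to 500 UMIs, at least 2 were found in 4 cells (0.374%) and 26 cells (2.53%, 1.66 to 3.69), and 1.40% and 5.94% without thinning. Nearly all wild-type macrophage-like cells were in cluster 5, and cluster 15 was almost entirely from the library labelled knockout. Inside cluster 5 the count of cells with at least 3 mitotic genes was 4 of 1059 and 17 of 629 (2.70%), so the difference was also present in the cluster both libraries fill. In cluster 15 it was 11 of 398 cells labelled knockout. Of the 28 cells labelled knockout, 17 had at least 3 UMIs of the 10 macrophage markers, against 76.9% of the remaining cells of the class.

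In macrophage-like cells the mitotic set read 275 CPM (245 to 307) in the wild-type library and 409 CPM (379 to 441) in the library labelled knockout, a log2 ratio of 0.57 (0.38 to 0.77). Without Cenpa it was 0.73 (0.52 to 0.95), and at a finer clustering resolution the whole set gave 1.04. That resolution left a cluster of 193 and 180 cells, led by H2-Ab1, unnamed. It named another, of 8 and 209 cells, monocyte- or dendritic-like, so the class then held other cells. Outside the cells with at least 3 mitotic genes, the set without Cenpa read 167 and 152 CPM, but those cells were picked by the same UMIs, so nothing is read from this order. Mki67 read 23.7 CPM (27 UMIs) and 56.1 CPM (93 UMIs), a log2 ratio of 1.22 (0.61 to 1.92). Top2a read 13.2 CPM (15 UMIs) and 42.8 CPM (71 UMIs), a log2 ratio of 1.66 (0.88 to 2.61). Birc5, survivin of the chromosomal passenger complex, read 1.75 CPM (2 UMIs) and 10.9 CPM (18 UMIs), with a log2 interval of 0.57 to 5.78. Cdk1, Cenpf, Cenpe, Bub1b and Prc1 also lay at least 2-fold higher in the library labelled knockout. In all, 11 of the 27 members with at least 20 UMIs did so in this class, against 8.9% of all genes with as many UMIs. Of the mitotic members with at least 20 UMIs, those with the opposite sign were Cenpa (52.6 and 40.4 CPM), Kif23 (log2 ratio -0.30), Anln (35.1 and 26.5 CPM) and Ccnb2 (9.65 and 5.43 CPM), each with an interval that included 0.

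The replication genes of this class read 189 and 224 CPM, a log2 ratio of 0.24 (-0.01 to 0.49), smaller than that of the mitotic set. Pcna read 32.5 and 43.4 CPM, Mcm6 31.6 and 28.3 CPM, Hells 35.1 and 27.7 CPM and Mcm7 21.1 and 22.3 CPM. Mcm5 read 2.63 CPM (3 UMIs) and 13.9 CPM (23 UMIs), and Mcm3 7.90 and 19.9 CPM. Tyms read 22.8 and 16.3 CPM. Cells with at least 2 distinct replication genes after thinning made up 0.374% (4 cells) and 0.876% (0.401 to 1.66, 9 cells). Of the G1/S regulators, Ccnd1 had 49 and 68 UMIs and Ccne2 read 4.39 and 8.44 CPM.

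Hmgb2 read higher than in the wild type in macrophage-like cells of the library labelled knockout, with 16.7 CPM (19 UMIs) and 74.8 CPM (124 UMIs), a log2 ratio of 2.13 (1.46 to 2.95). Inside cluster 5 it read 16.8 and 69.2 CPM, and cluster 15 read 83.2 CPM. After thinning, 0.561% and 2.82% of macrophage-like cells held Hmgb2. In the other 4 large classes it lay between 19.0 and 39.3 CPM in both libraries.

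**Figure D4:**
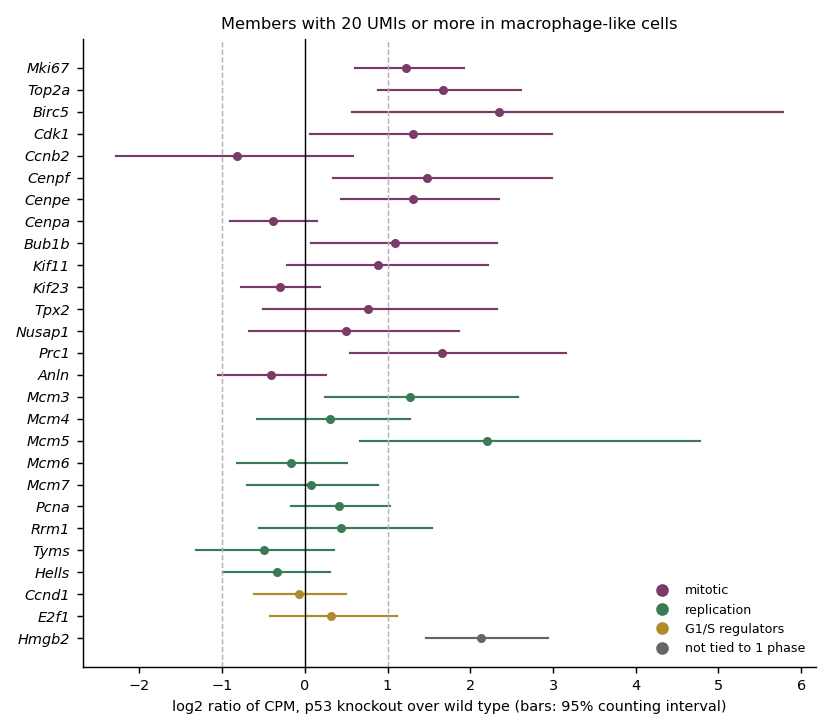
Points are log2 ratios of CPM, p53 knockout over wild type, of the 27 genes with at least 20 UMIs in macrophage-like cells, coloured by role, with 95% counting intervals and dashed lines at 2-fold. Hmgb2 lies at 2.13, Mki67 at 1.22 and Top2a at 1.66, while Cenpa, Kif23 and Anln lie left of 0.

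Kif23, E2f1 and Anln were high in macrophage-like cells of both libraries, and the interval of each log2 ratio included 0. Kif23 read 61.4 CPM in the wild-type library there (70 UMIs, and 83 in the library labelled knockout) against 0.444 to 15.7 CPM in the other large classes. Over all kept cells, cells with Kif23 held another mitotic gene in 24.1% of 112 wild-type cells and 30.7% of 127 cells labelled knockout. E2f1 read 21.1 CPM (24 UMIs) and 26.5 CPM (44 UMIs) in macrophage-like cells and 0.424 to 3.25 CPM in the other 4 large classes. Anln read 35.1 and 26.5 CPM against 2.78 to 10.7 CPM. After thinning, 2.25% and 2.04% of macrophage-like cells held Kif23, against 0.104% and 0 of 868 in cardiomyocyte-like cells, at median depths of 930 and 1290 UMIs for macrophage-like and 985 and 1735 UMIs for cardiomyocyte-like cells. Within the class, cluster 5 read Kif23 at 62.0 and 74.2 CPM, and cluster 15 at 13.6 CPM in the library labelled knockout.

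Among endocardial-like cells, at least 3 mitotic genes were found in 10 of 1662 (0.602%, 0.289 to 1.10) and 15 of 1687 (0.889%, 0.498 to 1.46). Thinned, the shares with at least 2 mitotic genes were 0.602% (10 cells) and 0.771% (13 cells), and 1.32% and 1.78% unthinned. The intervals of the libraries overlapped. When clustering used cell cycle genes the thinned shares were 0.124% and 0.249%. That clustering put 24 wild-type cells and 27 cells labelled knockout in a cluster of no named class, led by Mki67 and Top2a. These shares are therefore of a class without the cells of that cluster. Clusters differed: cluster 4 held 10 of 1588 wild-type and 8 of 309 cells labelled knockout with at least 3 mitotic genes, cluster 7 held 3 of 1174 cells labelled knockout and cluster 21 held 4 of 131. At least 3 endocardial marker UMIs were found in 6 of the 10 and 11 of the 15 cells, against 86.6% and 94.5% of the rest of the class. Endocardial markers made up 0.563% of the UMIs of the 10 wild-type cells and 0.988% of those of the rest, and 0.536% and 1.55% in the library labelled knockout. Fibroblast markers made up 0.799% of the UMIs of the 15 cells labelled knockout, more than the endocardial markers there, and 0.350% of those of the rest. Cardiomyocyte markers were a larger share of the UMIs of the 10 wild-type cells than of the rest, where they made up 0.840%. The part of these other markers in the result was not tested.

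The mitotic set in endocardial-like cells read 160 CPM (142 to 179) and 117 CPM (106 to 128), a log2 ratio of -0.45 (-0.66 to -0.23). Its sign turned inside cluster 4, where it was 1.32, with Mki67 at 25.4 and 106 CPM and Top2a at 11.2 and 51.5 CPM. The value of the class thus mixes clusters that differ between the libraries. Over the whole class Mki67 read 23.7 and 14.8 CPM, Top2a 10.5 and 15.3 CPM, Cenpf 10.5 and 6.76 CPM and Cenpa 32.6 and 10.3 CPM. Ccnb2, cyclin B2, read 1.66 CPM (3 UMIs) and 5.50 CPM (22 UMIs). The replication genes read 191 CPM (171 to 212) and 204 CPM (190 to 218), with a log2 ratio whose interval included 0 (-0.09 to 0.28). Tyms read 17.1 and 36.0 CPM, Mcm5 1.66 and 6.26 CPM, and Pcna 29.8 and 37.8 CPM, whereas Hells read 18.2 and 12.0 CPM, Mcm6 33.1 and 26.8 CPM and Rrm1 20.4 and 16.3 CPM. Replication members thus differed in sign here too. Ccne2 read 7.18 and 9.51 CPM, E2f1 2.76 and 3.25 CPM, and Hmgb2 34.2 and 39.3 CPM.

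In vascular endothelial-like cells, 4 of 2635 and 6 of 1950 cells held at least 3 mitotic genes. The mitotic set read 107 CPM (94.1 to 121) and 101 CPM (90.0 to 112). The replication set read 155 CPM (140 to 172) and 206 CPM (191 to 222), a log2 ratio of 0.41 (0.22 to 0.60). The replication genes were higher in the library labelled knockout, while the interval of the mitotic log2 ratio included 0 (-0.33 to 0.16). By cluster, the mitotic set without Cenpa read 90.0 and 82.6 CPM in cluster 2, a log2 ratio of -0.11 (-0.66 to 0.38). In cluster 11 it read 44.5 CPM (12 UMIs) and 147 CPM (165 UMIs), a log2 ratio of 1.67 (0.88 to 2.70). Of the 533 cells labelled knockout in cluster 11, 3 held at least 3 mitotic genes. Over the class, 6 cells labelled knockout with at least 3 genes of that set held 133 of its 296 UMIs. The mitotic log2 ratio of the class was -0.55 with doublets kept and -0.63 when clustering used cell cycle genes. Hells read 5.94 CPM (14 UMIs) and 18.2 CPM (59 UMIs), Tyms 18.7 and 32.4 CPM, Pcna 31.4 and 39.5 CPM, Mcm6 23.3 and 29.6 CPM and Rrm1 19.5 and 22.2 CPM. Mcm7 read 19.5 and 10.8 CPM. Ccnd1 read 64.5 and 80.5 CPM in this class and 76.2 and 79.6 CPM in endocardial-like cells, against 22.0 to 24.4 CPM in cardiomyocyte-like cells. Cenpa read 24.2 and 9.26 CPM, Kif23 15.7 and 10.8 CPM, Mki67 6.79 and 10.2 CPM, Cenpf 12.7 and 4.94 CPM and Bub1b 2.54 and 4.94 CPM. Cenpa and Cenpf thus had the sign they had in cardiomyocyte-like cells. Ccne2 read 3.82 and 5.86 CPM, Top2a 5.09 and 5.55 CPM, Hmgb2 30.1 and 31.8 CPM and Stmn1 8.06 and 5.55 CPM.

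Fibroblast-like cells had 4 of 3178 and 4 of 1911 cells with at least 3 mitotic genes. The mitotic set read 80.0 CPM (70.8 to 90.0) and 64.0 CPM (56.3 to 72.4), and the replication set 134 and 131 CPM. Cenpa read 16.2 and 5.89 CPM, Top2a 6.64 CPM (23 UMIs) and 1.54 CPM (6 UMIs), and Mki67 2.02 CPM (7 UMIs) and 6.14 CPM (24 UMIs). Mki67 and Top2a thus had opposite signs. Cells with at least 3 mitotic genes, 4 in each library, held 43 of 277 and 46 of 250 mitotic UMIs. Anln read 8.08 and 10.7 CPM, Cenpf 6.93 and 3.58 CPM and Cenpe 2.60 and 6.14 CPM. When clustering was allowed to use cell cycle genes the log2 ratio of the mitotic set was 0.24 and no longer -0.32. The class then included a cluster of 8 wild-type and 230 cells labelled knockout, led by Col11a1 and Thbs1. Smooth muscle-like cells then numbered 55 and 100, and no longer 61 and 188. Mcm7 read 26.6 and 12.5 CPM, Mcm5 1.73 and 3.84 CPM, Tyms 20.2 and 18.7 CPM, Pcna 20.5 and 18.2 CPM, Mcm6 17.6 and 20.5 CPM and Ccnd1 42.4 and 24.6 CPM. Cluster 0 held 3042 of the 3178 wild-type cells and 137 of the 1911 cells labelled knockout. Inside it the mitotic set without Cenpa read 63.8 CPM (209 UMIs) and 139 CPM (24 UMIs), a log2 ratio of 1.15 (0.45 to 1.73), whereas over the class it was -0.14 (-0.41 to 0.14). Cenpa had 52 and 0 UMIs in that cluster. Of its 137 cells labelled knockout, 1 held at least 3 mitotic genes. In cluster 3, which held most cells labelled knockout, the set without Cenpa had 12 and 203 UMIs and a log2 ratio of -0.29 (-1.07 to 0.74).

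**Figure D5:**
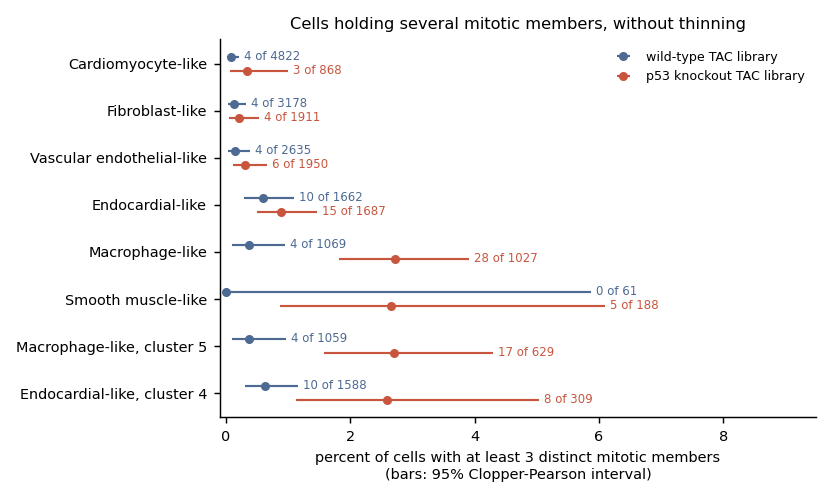
Points are the percent of cells with at least 3 distinct mitotic genes in each class and in the clusters both libraries fill, with 95% Clopper-Pearson intervals and the number of cells written beside them. Macrophage-like cells lie at 0.374% and 2.73%, and their intervals do not overlap.

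Cardiomyocyte-like cells with at least 3 mitotic genes were 4 of 4822 and 3 of 868. Of these 7 cells, 1 wild-type cell held 7 mitotic genes, Mki67, Top2a, Cenpa, Kif11, Tpx2, Prc1 and Anln, and 41 UMIs of cardiomyocyte markers. The other 6 held 3 or 4, among them Cenpa in 5. After thinning, at least 2 mitotic genes were found in 12 of 4822 wild-type cells (0.249%, 0.129 to 0.434) and 0 of 868 cells labelled knockout, which allows a share of up to 0.346% by a limit of 3 counts and 0.424% by the Clopper-Pearson interval. Without Cenpa the wild-type count was 3 cells (0.0622%). Unthinned, the shares were 1.06% and 3.46%. For comparison, the thinned count was 1 of 88 neutrophil-like cells of the library labelled knockout and 0 of 31 and 0 of 56 adipocyte-like cells. Their medians were 856, 754 and 1406.5 UMIs, and a limit of 3 counts is 3.41%, 9.68% and 5.36% of them. Pericyte-like cells had 0 of 758 and 0 of 219, at medians of 877 and 1501 UMIs, where that limit is 0.396% and 1.37%. Each limit lies above 0.249%, so whether the cardiomyocyte-like share exceeds a background cannot be told from classes of these sizes.

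Among smaller classes, 5 of 188 smooth muscle-like cells labelled knockout (2.66%, 0.869 to 6.10) and 0 of 61 wild-type cells held at least 3 mitotic genes. Those 5 cells carried 132 of 179 mitotic UMIs of the class. Fibroblast markers made up 2.76% of the UMIs of the 5 cells and 1.48% of those of the rest of the class, beside 2.01% in fibroblast-like cells labelled knockout outside their own cells with 3 mitotic genes. All 5 had at least 3 fibroblast marker UMIs, and Col1a1, Col11a1 and Thbs1 were among the leading genes of the cluster beside Myh11, Acta2 and Tagln. The part of fibroblast RNA in this count was not tested. Mesothelial-like cells had 2 of 271, lymphatic endothelial-like cells 1 of 323, with 19 of the 24 mitotic genes, and T or NK-like cells 1 of 135, all in the library labelled knockout. The mesothelial-like pair had a median of 20361.5 UMIs against 1774 in the class. Pericyte-like cells had 0 of 758 and 0 of 219.

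S-phase and mitotic genes were not found in the same proportion in each class. The ratio of replication to mitotic UMIs was 0.861 (0.811 to 0.913) in the wild-type library and 1.16 (1.10 to 1.23) in the library labelled knockout. Without Cenpa the order of the libraries turned, to 1.55 and 1.37. Macrophage-like cells had ratios of 0.690 (0.578 to 0.823) and 0.547 (0.481 to 0.622). Fibroblast-like cells had 1.67 and 2.04, vascular endothelial-like cells 1.45 and 2.05 and endocardial-like cells 346 replication to 289 mitotic UMIs in the wild-type library and a ratio of 1.75 in the library labelled knockout. Cardiomyocyte-like cells had 0.427 and 0.470, and 1.37 and 1.03 without Cenpa. With Cenpa set aside, macrophage-like cells were the lowest of the 5 large classes, at 0.854 (0.709 to 1.03) and 0.607 (0.532 to 0.692). Their intervals lay apart from those of the other 4 classes in each library. Kif23 and Anln, high in this class in both libraries, are among these mitotic UMIs. In cluster 5, Kif23 alone gave 70 of 253 and 74 of 420 of them. The ratio without Kif23 and Anln was not computed, so this order is not read as a proportion of S phase to mitosis.

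Without thinning, at least 3 distinct replication genes were found in 21 wild-type and 74 cells labelled knockout. Of these, 5 and 21 also held at least 3 mitotic genes, and 5 and 35 held no mitotic gene. Endocardial-like cells of the library labelled knockout held 27 of the 74. The 21 and 74 cells were deep, at medians of 1825 and 3841.5 UMIs against 936 and 1569 over all kept cells. The median of all endocardial-like cells labelled knockout was 1968 UMIs. These counts are therefore not separated from depth. Rrm2, the S-phase subunit of ribonucleotide reductase, and Pclaf, a partner of PCNA, shared a cell with a mitotic gene in larger shares than the helicase gene Mcm6: 60.0% of 15 and 35.7% of 42 cells for Rrm2, and 23.8% of 21 and 61.3% of 31 for Pclaf, against 34 of 227 and 55 of 314 cells for Mcm6. Over all kept cells, thinned, at least 2 replication genes were found in 0.210% (31 cells) and 0.355% (33 cells), and unthinned in 0.867% and 3.03%.

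The count of members past 2-fold was read against all genes with at least 20 UMIs in the class. In macrophage-like cells 27 of the 42 members reached 20 UMIs, of which 11 were at least 2-fold higher in the library labelled knockout (8.9% of 11491 genes) and 0 at least 2-fold lower (12.4%). The median log2 ratio of the 27 was 0.50, and of all genes -0.06. In cardiomyocyte-like cells 22 members were counted, 4 higher (4.27% of 13661 genes) and 7 lower (15.8%). In fibroblast-like cells 25 were counted, 3 higher (6.04% of 13633 genes) and 4 lower (11.7%). In vascular endothelial-like cells 27 were counted, 2 higher (6.39% of 12728 genes) and 3 lower (12% of genes). In endocardial-like cells 29 were counted, 4 higher (6.41% of 12821 genes) and 3 lower (11.2%). The medians of the members in these 4 classes were -0.12, -0.17, 0.32 and 0.05, and those of all genes -0.26, -0.11, -0.08 and -0.10. The median-of-ratios shift of the log2 ratios was -0.21 in cardiomyocyte-like, -0.17 in fibroblast-like, vascular endothelial-like and endocardial-like, and -0.14 in macrophage-like cells.

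Other cell cycle genes, from lists that hold none of the 42, were read in the same cells. In the cells with at least 3 mitotic genes, 36 of 40 other mitosis genes and 20 of 29 other replication genes were higher than in the rest in both libraries. Smc4, a condensin subunit, read 823 CPM in the 26 wild-type cells and 157 CPM in the rest, and 696 and 352 CPM in the library labelled knockout. The list of other mitosis genes read 19.6-fold and 9.13-fold higher, and other replication genes 5.95-fold and 5.05-fold higher. Of 18 inhibitors and quiescence genes, 7 were higher and 4 lower in both libraries. The share of all genes that were higher in these cells was not computed, so the counts of the lists have no reference. The cells were deeper, at medians of 1692.5 and 2588 UMIs against 936 and 1569 over all kept cells. Between libraries, 16 other mitosis genes reached 20 UMIs in macrophage-like cells, 10 of them at least 2-fold higher in the library labelled knockout, where 8.9% of all genes with as many UMIs were. These sums include the 4 and 28 cells with at least 3 mitotic genes, and the values without them were not computed. Their median log2 ratio was 1.12, beside -0.06 over all genes. Pttg1, securin, read 7.98 and 40.0 CPM over all kept cells. In the library labelled knockout it read 13.5 CPM (3 UMIs) in the 65 cells and 40.3 CPM in the rest. Cdkn1a, the inhibitor p21 and a p53 target, read 22.0 and 63.4 CPM over all kept cells. Of the other abundant list genes, Btg1 read 54.1 and 164 CPM, Ccnd3 138 and 291 CPM, Ccnd2 84.2 and 143 CPM, Dnmt1 26.4 and 49.2 CPM and Atad2 36.7 and 54.1 CPM. Gas1 read 64.2 and 98.5 CPM, Smc2 20.3 and 28.2 CPM, Cdk4 32.3 and 38.5 CPM, Cdk6 96.3 and 111 CPM and Lin52 93.4 and 85.9 CPM. Rb1 had a log2 ratio of -0.20 (-0.27 to -0.13). For Pola1 (56.5 and 52.1 CPM), Usp1 (35.1 and 37.6 CPM) and Ncapd2 (21.3 and 22.7 CPM) the interval of the log2 ratio included 0.

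Overlaps with other annotated genes limit some of these values, and only genes of the count tables were searched. On the opposite strand, 10 members overlap another gene (Ccna2, Kif20a, Nusap1, Prc1, Ube2c, Cdc20, Mcm7, Pclaf, Ccne2 and Ccnd1), and whether counting used strand is not given in the sources used here. Prc1 shares 21810 bases with Rccd1 and Pclaf 13030 bases with Trip4. Ube2c overlaps Tnnc2, a troponin gene, by 1662 bases. On the same strand, Anln overlaps Gm48646 by 1228 bases. Cenpa, Cenpf, Mki67, Top2a and Hmgb2 overlap none.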

How the data were processed

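Single cells of the left ventricle of TAC mice were measured in 1 library per genotype. The values the authors deposited are whole-number UMI counts per gene and barcode. The submitters' processing notes name mm10 as the build and list Seurat and Cell Ranger, with no version. The labels name a 10x 3' kit, but the barcodes are joined blocks of bases, so the platform is uncertain. The members and lists were chosen with earlier results of these data known.

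Cells with at least 200 genes and at most 50% mitochondrial UMIs were kept. Scrublet in scanpy 1.11.5 marked 0 and 3 barcodes, 0.0297% in the knockout library, so the 8% with the highest doublet scores were removed (1283 and 808). Of the removed cells, 0 and 1 held at least 3 mitotic genes. Cells were clustered without cell cycle genes (2000 variable genes, 30 components, leidenalg 0.10.2, resolution 1) into 26 clusters. Clusters were named from marker lists as X-like classes. None was named monocyte- or dendritic-like, a list that came second for cluster 15, so the macrophage-like class may include such cells. Cdh19 was left out of the Schwann markers after it was seen to keep fibroblast cluster 0 unnamed. Cluster 16, of 3 and 332 cells, stayed unnamed. Different clusters hold most cells of a class in each library. Names were rebuilt here and may differ from the study's.

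Each genotype has 1 library, so no test across samples was made. UMIs were summed per library and class and divided by nuclear-encoded UMIs. Log2 ratios add 0.5 UMI to each sum. Intervals are exact Poisson, Clopper-Pearson or conditional binomial ones and cover counting error only. Genes named per class are the 4 members of each role with the most UMIs and those with the highest and lowest log2 ratio among members with at least 20 UMIs, with Mki67 and Top2a always. Other lists give the 4 genes with the most UMIs and Cdkn1a, and members named beyond this rule were chosen after their values were seen. The ratios were tested on simulated data. Alternatives were other cell filters, clusterings, scalings, thinning depths and sets without their most abundant gene.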

Additional observations from a re-analysis of the deposited data

Results flagged for a closer look

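The log2 ratio of the mitotic set, library labelled knockout over wild type, was above 0 in macrophage-like cells (0.57) and below 0 in cardiomyocyte-like (-0.48), fibroblast-like (-0.32) and endocardial-like cells (-0.45). Macrophage-like cells differed from these 3 classes by 1.06, 0.89 and 1.02 on the log2 scale. With 1 library per genotype, the difference was not tested. The sign below 0 reversed in cardiomyocyte-like cells without Cenpa and in endocardial-like cells inside cluster 4. It also reversed in fibroblast-like cells when clustering used cell cycle genes, which changed the cells of the class. Inside fibroblast cluster 0 the set without Cenpa was also above 0 (1.15), on 24 UMIs of 137 cells labelled knockout. Of those cells, 1 held at least 3 mitotic genes. In cluster 3, which held most fibroblast-like cells labelled knockout, it was -0.29 (-1.07 to 0.74).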

How the results depend on the processing

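Of 355 recomputed values of 49 results, 248 stayed the same by the spread used, 104 moved and 3 reversed. The log2 ratio of the mitotic set reversed without Cenpa in cardiomyocyte-like cells (0.073), when clustering used cell cycle genes in fibroblast-like cells (0.24), and inside cluster 4 in endocardial-like cells (1.32). It moved to -0.28 in cardiomyocyte-like cells under median-of-ratios scaling. In vascular endothelial-like cells it moved to -0.55 with doublets kept and -0.63 with cell cycle genes. With at most 20% mitochondrial UMIs it was -0.83 for the endocardial-like class and 0.80 for the macrophage-like class. In macrophage-like cells it was 1.04 at resolution 2 and 0.79 in cluster 5. Resolution 2 and the limit of 20% mitochondrial UMIs each named monocyte- or dendritic-like cells apart, so the macrophage-like class held other cells. The replication log2 ratio was 0.37 in cluster 4. Clustering with cell cycle genes changed which cells each class held. It put 24 wild-type and 27 cells labelled knockout, led by Mki67 and Top2a, in a cluster of no named class. It also named as fibroblast a cluster of 8 and 230 cells led by Col11a1 and Thbs1. The choices of single clusters were made after seeing the data, and the cause of these moves was not tested.

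Shares of cells move with depth and with the number of genes asked for. Thinning to 1000 UMIs left out shallower cells, so its shares are of 6670 of 14764 wild-type and 6693 of 9298 cells labelled knockout. At least 2 mitotic genes were then found in 0.660% and 1.06% of the cells left. The share was 0.678% and 0.943% of 2361 and 636 cardiomyocyte-like cells, 1.45% and 3.81% of 482 and 683 macrophage-like cells, and 1.21% of 828 wild-type endocardial-like cells. Unthinned shares were 0.772% and 2.02%, 1.06% and 3.46%, 1.40% and 5.94%, and 1.32% and 1.78% for all, cardiomyocyte-like, macrophage-like and endocardial-like cells. With 1 mitotic gene they were 5.25% and 4.61%, 7.13% and 4.95%, 10.2% and 9.93%, and 4.39% and 4.27%. With 3 they were 0.108% and 0.28% of all cells, 0.0207% of wild-type cardiomyocyte-like cells and 1.46% of macrophage-like cells labelled knockout. Without Cenpa the share of wild-type cardiomyocyte-like cells was 0.0622%. Endocardial-like shares were 0.124% and 0.249% when clustering used cell cycle genes, and 1.62% of cells labelled knockout in cluster 4. For replication genes, the 6670 and 6693 cells left at 1000 UMIs gave 0.750% and 1.11%, and all cells gave 0.867% and 3.03% unthinned, 5.22% and 7.10% with 1 gene, and 0.00677% and 0.0538% with 3.

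Members at least 2-fold apart numbered 7 in cardiomyocyte-like cells with 2 UMIs added. With at least 50 UMIs, where fewer genes are counted, they numbered 4 in cardiomyocyte-like cells, 4 in macrophage-like cells and 2 in each of the fibroblast-like, vascular endothelial-like and endocardial-like classes. Replication to mitotic UMIs in cardiomyocyte-like cells were 1.14 and 0.765 without Pcna and Cenpa, and 1.18 in wild-type vascular endothelial-like cells with doublets kept. No paired analysis was possible because each group holds 1 library.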
